A study of Mus musculus with 24 samples.

Results

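Glutathione S-transferases (GSTs) were followed as a group of 10 genes, *Gsta1*, *Gsta2*, *Gsta3*, *Gsta4*, *Gstm1*, *Gstm2*, *Gstm3*, *Gstp1*, *Gstt1* and *Gstz1*, chosen by name and found by symbol among the 24411 genes counted in all 24 mouse liver RNA libraries. All libraries came from male mice of 2.5 months whose *E2f7* and *E2f8* alleles were flanked by loxP sites. The R26R-mTmG reporter is described in both cohorts. In the LKO cohort (mixed background, predominantly FVB), LKO mice carried Alb-Cre, which is driven by the albumin promoter and acts in hepatoblasts and their descendants (hepatocytes and cholangiocytes), and control mice were littermates without Cre. In the HKO cohort, adult mice received AAV8-TBG-Cre, a virus whose promoter restricts Cre to hepatocytes, and their controls received AAV8-TBG-Null, so these controls carry the viral vector and those of the LKO cohort do not, and the background of the HKO cohort is not given in the sources used here. At 0 h each library was a single untreated mouse after an overnight fast of about 16 h (4 control and 4 LKO, 3 control and 3 HKO). After acetaminophen (APAP, 300 mg/kg by intraperitoneal injection), the LKO cohort gave 1 control and 1 LKO library at each of 12, 24, 48, 72 and 96 h, each pooled from 3 mice, and HKO livers after APAP were not analysed here.

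GSTs join the tripeptide glutathione to electrophiles, and the conjugates are exported and trimmed to mercapturates. In the liver, joining to glutathione detoxifies NAPQI, the reactive product that cytochrome P450 enzymes make from APAP. NAPQI depletes glutathione and binds proteins in the pericentral hepatocytes that make most of this product. The cytosolic enzymes are grouped by sequence into classes, among them alpha, mu, pi, theta and zeta. Several alpha and mu genes are known targets of NRF2, a transcription factor that binds antioxidant response elements, and in mice the pi-class enzyme is more abundant in male than in female liver.

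Reads assigned to genes ranged from 12665686 to 19499897 per library, and values are given in counts-per-million (CPM) scaled by the trimmed mean of M-values (TMM) within each cohort. *E2f8* was higher rather than lower in the libraries labelled as deleted, at 30.0 to 81.8 CPM in HKO against 14.5 to 25.8 CPM in their controls, and the counts sum all exons of a gene, so they do not check the deletion of some of them. *E2f7* had 66 reads or fewer in every library. Counts by exon were not analysed here, and the genotypes are those of the labels. The 10 hepatocyte markers examined (*Alb*, *Apoa1* and others) were present in every group, with a summed level of 59160 to 141300 CPM over the 24 libraries. In whole liver, fewer cells of a type and less RNA per cell cannot be told apart.

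Compared per length of transcript (transcripts-per-million, TPM), *Gstp1* and *Gstm1* supplied most of the RNA of these 10 genes before APAP. In the 4 LKO-cohort control mice at 0 h the mean level was 4122 ± 1085 TPM (SD, n = 4) for *Gstp1* and 3241 ± 1420 TPM for *Gstm1*. These means differed by less than the SD of either gene. *Gsta3* (669 ± 218 TPM) followed, then *Gstt1* (357 ± 98.7 TPM) and *Gstz1* (349 ± 12.9 TPM), which did not differ beyond their spread. *Gstm3* (179 ± 131 TPM), *Gsta4* (136 ± 27.7 TPM), *Gsta2* (85.3 ± 57.0 TPM) and *Gstm2* (84.7 ± 27.2 TPM) formed a lower group with overlapping spreads, and *Gsta1* was last at 1.97 ± 2.04 TPM. *Gstz1* was the steadiest of the 10 between these mice, and the highest mouse had 1.12 times the CPM of the lowest. For *Gsta1*, *Gstm3* and *Gsta2* that ratio was 11.9, 4.08 and 3.97.

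The HKO cohort had the same leading genes at 0 h, with *Gstp1* at 3447 ± 609 TPM and *Gstm1* at 1480 ± 333 TPM in the 3 controls. *Gstm3* was at 10.4 ± 4.10 TPM there. Cohort and virus cannot be told apart, and no difference between the cohorts' control mice was tested.

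Reads of close relatives can be counted for each other or dropped as multimapping. On GRCm38 (GENCODE vM21), *Gsta1* lies at chr9:78230656-78242684 (plus strand) and *Gsta2* at chr9:78331018-78355788 (minus strand), and their longest transcripts are 97.2% identical over 870 aligned bases. Of all 100-base windows of the *Gsta1* transcript, 81.8% also occur in *Gsta2*, *Gm3776* or *Gm10639*, against 35% of those of *Gsta2*, so the split of reads between them is uncertain. *Gstp1* (chr19:4035407-4037985, minus strand) shares 52.8% of its windows with *Gstp2* or the pseudogene *Gstp-ps*. *Gstm1* (chr3:108012255-108017973), *Gstm2* (chr3:107981702-107986453) and *Gstm3* (chr3:107963696-107969283) lie side by side on the minus strand and share 7.73%, 0.622% and 13.8% of their windows with other genes. *Gsta3* (chr1:21240589-21265661), *Gsta4* (chr9:78182774-78209349), *Gstt1* (chr10:75783813-75798584) and *Gstz1* (chr12:87147165-87164723) share none. All 10 are protein-coding genes.

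The promoters of the 3 alpha-class genes *Gsta1*, *Gsta2* and *Gsta3* and of the pi-class *Gstp1* are shown because the levels of these 4 genes took different courses after APAP. Each is the 250 bases before the RefSeq gene start on GRCm38.p6, at chr9:78230419-78230668 (plus) for *Gsta1*, chr9:78347146-78347395 (minus) for *Gsta2*, chr1:21240335-21240584 (plus) for *Gsta3* and chr19:4037913-4038162 (minus) for *Gstp1*. Capitals mark a match to the antioxidant response element core TGACNNNGC in *Gsta3* and to the AP-1 site TGANTCA in *Gstp1*, searched on both strands.
Gsta1: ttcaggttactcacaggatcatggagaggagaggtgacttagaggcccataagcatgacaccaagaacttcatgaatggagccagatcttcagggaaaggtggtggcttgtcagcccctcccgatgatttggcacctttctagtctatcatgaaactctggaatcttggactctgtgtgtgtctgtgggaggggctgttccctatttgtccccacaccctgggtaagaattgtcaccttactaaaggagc
Gsta2: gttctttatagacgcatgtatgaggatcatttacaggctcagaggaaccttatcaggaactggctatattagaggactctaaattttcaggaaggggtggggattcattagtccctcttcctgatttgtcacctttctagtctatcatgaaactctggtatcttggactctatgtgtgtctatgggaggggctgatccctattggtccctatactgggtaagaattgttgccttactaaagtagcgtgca
Gsta3: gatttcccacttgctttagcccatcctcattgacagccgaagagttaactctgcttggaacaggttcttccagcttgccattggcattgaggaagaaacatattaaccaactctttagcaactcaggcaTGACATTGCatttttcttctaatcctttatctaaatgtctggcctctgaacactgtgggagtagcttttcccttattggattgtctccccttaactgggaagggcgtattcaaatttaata
Gstp1: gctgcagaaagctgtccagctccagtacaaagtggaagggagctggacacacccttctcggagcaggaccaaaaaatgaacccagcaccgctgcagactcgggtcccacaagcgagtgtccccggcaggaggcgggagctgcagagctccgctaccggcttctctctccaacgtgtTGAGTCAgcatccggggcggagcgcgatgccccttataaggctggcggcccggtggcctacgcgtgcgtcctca
The *Gsta1* and *Gsta2* promoters are 77% identical over 239 aligned bases, and neither holds a match to either motif within these 250 bases. Sequence further upstream was not searched. The match in *Gsta3*, TGACATTGC, begins at -121 from the gene start, and that in *Gstp1*, TGAGTCA, begins at -74. Of 32851 promoters of this length, 10.2% held the first motif and 6.75% the second. No match was found in the promoters of *Gstm1*, *Gstm2*, *Gstm3*, *Gstt1* or *Gstz1* in this window. A match is a string of letters, and binding was not measured.

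To ask how the family responded to APAP, the 2 pools of each time point were compared with the 8 untreated mice of the LKO cohort, with genotype as a covariate. All libraries from 12 to 96 h came from treated mice, without untreated mice of the same times. Changes with APAP therefore cannot be told apart from those with time since the overnight fast, feeding or time of day. A gene was called when its adjusted p was under 0.05 and its fold change at least 1.5 (edgeR's quasi-likelihood test, Benjamini-Hochberg over all genes tested). *Gsta1* rose steeply and 5 genes of the alpha, mu, theta and zeta classes fell at 12 h, *Gstm2* and *Gstm3* had turned to higher levels by 72 h, and none was called at 96 h. The 5 comparisons share the same untreated mice, and their spread comes mostly from single mice while pools average 3, so an adjusted p says little about the spread between pools. With the libraries of a single genotype (1 pool against 4 mice), *Gsta1* was called from 12 to 72 h in control and from 12 to 48 h in LKO, and the other calls were lost except *Gstt1* at 48 h in control. The lost calls kept their direction, with log2 fold changes of -3.16 to -0.72 in control and -1.97 to -0.44 in LKO for those called lower and 0.85 to 2.34 for those called higher. Some were smaller than with both genotypes, such as *Gstt1* (-0.44 against -0.89) and *Gstm3* (-0.91 against -1.83) at 48 h in LKO.

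At 12 h, 6 of the 10 genes were called (1 higher, 5 lower), against 32.1% of the 12639 genes tested (17.3% higher, 14.7% lower). At 24 h 6 were called (1 and 5), against 26.5% of all genes (13.9% higher, 12.5% lower). At 48 h 5 were called (1 higher, 4 lower), against 15.7% (9.15% higher, 6.6% lower). At 72 h 3 were called, all higher, against 16.1% (10.3% higher, 5.72% lower). At 96 h 0 were called by edgeR, against 0.538% of all genes (0.396% higher, 0.142% lower). An unadjusted p under 0.05 was found for 5 of the 10 and for 2012 of the 12639 genes tested. DESeq2 called *Gstm2* and *Gstp1*, among 334 genes called. Both pools lay outside the range of all 8 untreated mice for 6 genes at 12 h (1 above, 5 below), against 17.4% of all genes above and 19.1% below, and for 6 at 24 h (1 above, 5 below; 19.9% and 18.5%). This held for 4 genes at 48 h (1 above, 3 below; 12.2% and 12% of all genes), for 3 at 72 h (all above; 14.6% and 12.5%) and for 3 at 96 h (*Gsta3*, *Gstm2* and *Gstt1* above; 7.03% and 7.78%). The median log2 fold change of the 10 genes was -0.61, -0.73 and -0.92 at 12, 24 and 48 h and 0.10 and 0.54 at 72 and 96 h, while the median over all genes stayed between -0.04 and 0.00.

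*Gsta1* encodes an alpha-class enzyme. Before APAP it was barely detected, at 0.476, 0.502, 0.172 and 2.05 CPM in the control mice (2 to 33 reads) and 0.834, 2.61, 0.349 and 1.59 CPM in the LKO mice (6 to 47 reads). From 12 to 96 h the control pools had 82.0, 137, 53.0, 9.86 and 1.97 CPM and the LKO pools 23.7, 113, 16.9, 6.91 and 5.19 CPM. Every pool from 12 to 72 h lay above all 8 untreated mice, and at 96 h the LKO pool still did while the control pool lay within the range of its untreated mice. The log2 fold change was 5.52, 6.78, 4.92 and 2.88 from 12 to 72 h (SE 0.54 to 0.58), with adjusted p = 3.89e-06, 1.27e-06, 2.03e-05 and 0.00278, and 1.74 at 96 h (SE 0.65, adjusted p = 0.205).

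*Gm3776*, which shares *Gsta1* sequence, followed *Gsta1* closely. It had 1267 reads in the control pool at 12 h and 1931 at 24 h, where *Gsta1* had 1242 and 2253, and at 0 h it had 1 to 22 reads in the control mice. Its log2 fold change was 5.78 at 12 h and 6.79 at 24 h (adjusted p = 3.89e-06 and 1.74e-06). Because of the windows they share, reads of these genes cannot be fully told apart.

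*Gsta2*, also alpha class, was not called at any time. It had 36.1, 26.2, 21.5 and 85.2 CPM in the untreated control mice and 21.4, 80.9, 35.2 and 89.9 CPM in the untreated LKO mice. The pools had 67.1, 39.7, 18.1, 22.7 and 50.9 CPM in control and 50.7, 48.4, 19.2, 46.1 and 62.2 CPM in LKO from 12 to 96 h. Both pools at 48 h lay below all 8 untreated mice and the other 8 pools within the range of their own genotype. Its log2 fold change at 48 h was -1.37 (SE 0.52, adjusted p = 0.082, and 0.0413 without LKO replicate 1), and the spread among untreated mice was about as wide as the changes over time. The plot of *Gsta1* and *Gsta2* by time sets the 2 genes side by side.

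**Figure D1:**
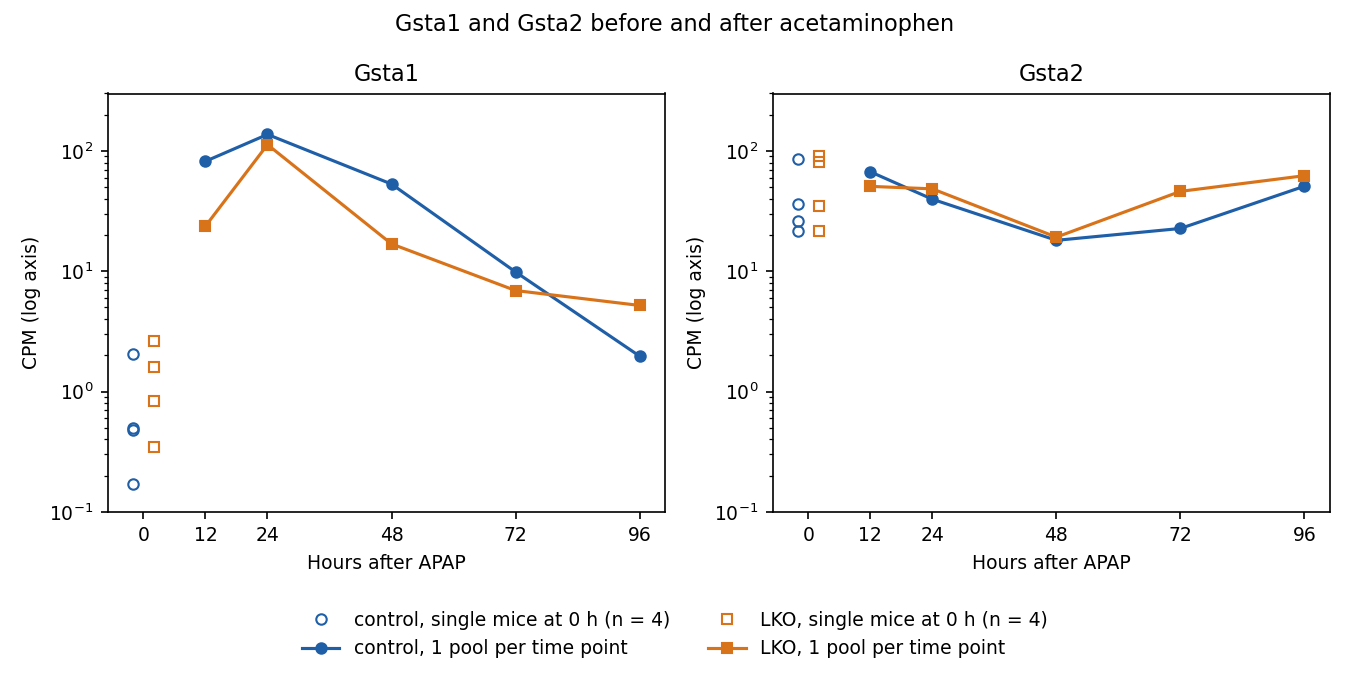
*Gsta1* (left) and *Gsta2* (right) in CPM on a log axis against hours after APAP. Open symbols are single untreated mice (4 control, 4 LKO, drawn beside 0 h), and filled symbols joined by lines are single pools of 3 mice. *Gsta1* peaked at 137 and 113 CPM at 24 h, while *Gsta2* stayed between 18.1 and 67.1 CPM in all pools.

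*Gsta3*, an alpha-class enzyme that conjugates the epoxide of aflatoxin B1, fell at 12 h and lay within or above the untreated range at 72 and 96 h. The untreated control mice had 1350, 1074, 736 and 1703 CPM and the LKO mice 674, 1188, 1098 and 1352 CPM. The control pools had 607, 876, 363, 1320 and 2166 CPM from 12 to 96 h, and the LKO pools 421, 769, 1202, 1671 and 1739 CPM. Both pools lay below all untreated mice at 12 h (log2 fold change -1.11, SE 0.39, adjusted p = 0.0337), and without the first control mouse the adjusted p was 0.0502. At 48 h the control pool was below its untreated mice and the LKO pool within the range of its own, and at 96 h both pools lay above all 8 mice (log2 fold change 0.78, SE 0.34, adjusted p = 0.274).

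*Gsta4*, whose product removes the lipid peroxidation product 4-hydroxynonenal, was not called at any time. The 8 untreated mice ranged from 44.6 to 121 CPM, the control pools from 39.9 CPM at 48 h to 134 CPM at 96 h and the LKO pools from 44.3 CPM at 12 h to 106 CPM at 96 h. The control pool at 24 h, at 114 CPM, lay above its untreated mice, and the LKO pool, at 58.6 CPM, lay within the range of its own. The fitted log2 fold changes from 12 to 96 h ranged from -0.40 to 0.60.

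Of the mu-class genes, *Gstm2* and *Gstm3* fell from 12 to 48 h and were higher than before APAP at 72 h, and *Gstm1* was called lower at 24 and 48 h. *Gstm3* had 51.8, 65.2, 67.4 and 211 CPM in the untreated control mice and 65.1, 144, 55.2 and 65.8 CPM in the LKO mice. Its control pools had 25.5, 13.2, 10.8, 235 and 129 CPM from 12 to 96 h and its LKO pools 34.5, 20.9, 43.5, 244 and 254 CPM. The 6 pools from 12 to 48 h lay below all 8 untreated mice and both pools at 72 h above them. The log2 fold change of *Gstm3* was -1.58, -2.45, -1.83 and 1.40 from 12 to 72 h (SE 0.46 to 0.60), with adjusted p = 0.0364, 0.00629, 0.0389 and 0.0433. Without LKO replicate 2 the calls at 12 and 48 h were lost (adjusted p = 0.0532 and 0.0603), and the call at 72 h was lost without control replicate 1, 2 or 3 or LKO replicate 1, 3 or 4 (0.0598 to 0.0673) and by DESeq2 (0.067).

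*Gstm2* showed the same order of changes with a narrower spread. It had 53.3, 55.7, 40.6 and 88.7 CPM in the untreated control mice and 45.2, 71.4, 42.0 and 56.5 CPM in the LKO mice. Its control pools had 22.7, 21.3, 28.4, 105 and 115 CPM and its LKO pools 35.6, 28.8, 25.7, 101 and 114 CPM. All 6 pools up to 48 h were below the 8 mice and all 4 later pools above them. The log2 fold change was -0.91, -1.18 and -1.04 at 12, 24 and 48 h (adjusted p = 0.0139, 0.00437 and 0.0149) and 0.87 at 72 h (SE 0.23, adjusted p = 0.0176). At 96 h it was 1.03 (SE 0.23) with an adjusted p of 0.0579, and without control replicate 4 the adjusted p was 0.0159.

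*Gstm1*, the most abundant of the mu genes, fell at 24 and 48 h and lay within the untreated range at 72 and 96 h. The untreated control mice had 1796, 1467, 1382 and 3367 CPM and the LKO mice 1084, 2677, 1744 and 2515 CPM. The control pools had 1344, 866, 464, 1811 and 2106 CPM and the LKO pools 1190, 1053, 1085, 2179 and 2232 CPM from 12 to 96 h. At 24 h both pools lay below all 8 mice (log2 fold change -1.07, SE 0.37, adjusted p = 0.0405), and at 48 h only the control pool did (-1.39, SE 0.38, adjusted p = 0.0214). The call at 24 h was lost without control replicate 1, LKO replicate 2 or LKO replicate 4 (adjusted p = 0.0525, 0.0598 and 0.0554) and with scaling by library size alone (0.0517).

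*Gstt1*, the theta-class enzyme that conjugates small halogenated hydrocarbons, and *Gstz1*, the zeta-class maleylacetoacetate isomerase of tyrosine breakdown, also fell early. *Gstt1* ranged from 172 to 313 CPM in the 8 untreated mice. Its control pools had 112, 121, 79.3, 198 and 317 CPM from 12 to 96 h and its LKO pools 119, 142, 184, 263 and 344 CPM, so that both pools at 12 and 24 h lay below all 8 mice and both at 96 h above them. The log2 fold change of *Gstt1* was -1.0, -0.86 and -0.89 at 12, 24 and 48 h (adjusted p = 0.00828, 0.0214 and 0.0303). *Gstz1* ranged from 578 to 795 CPM in the untreated mice, and its control pools had 437, 418, 446, 601 and 956 CPM and its LKO pools 485, 496, 763, 726 and 739 CPM. Its log2 fold change was -0.61 at 12 h (SE 0.20, adjusted p = 0.0246) and -0.67 at 24 h (SE 0.20, adjusted p = 0.0191), and at 48 h it was -0.25 (adjusted p = 0.394). Both calls of *Gstz1* lay near the fold limit of 1.5 and missed it under another setting, at 12 h with the stranded column (-0.58) and at 24 h with library size alone (-0.53). The plot of 6 genes by time shows the early low levels and the later return.

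**Figure D2:**
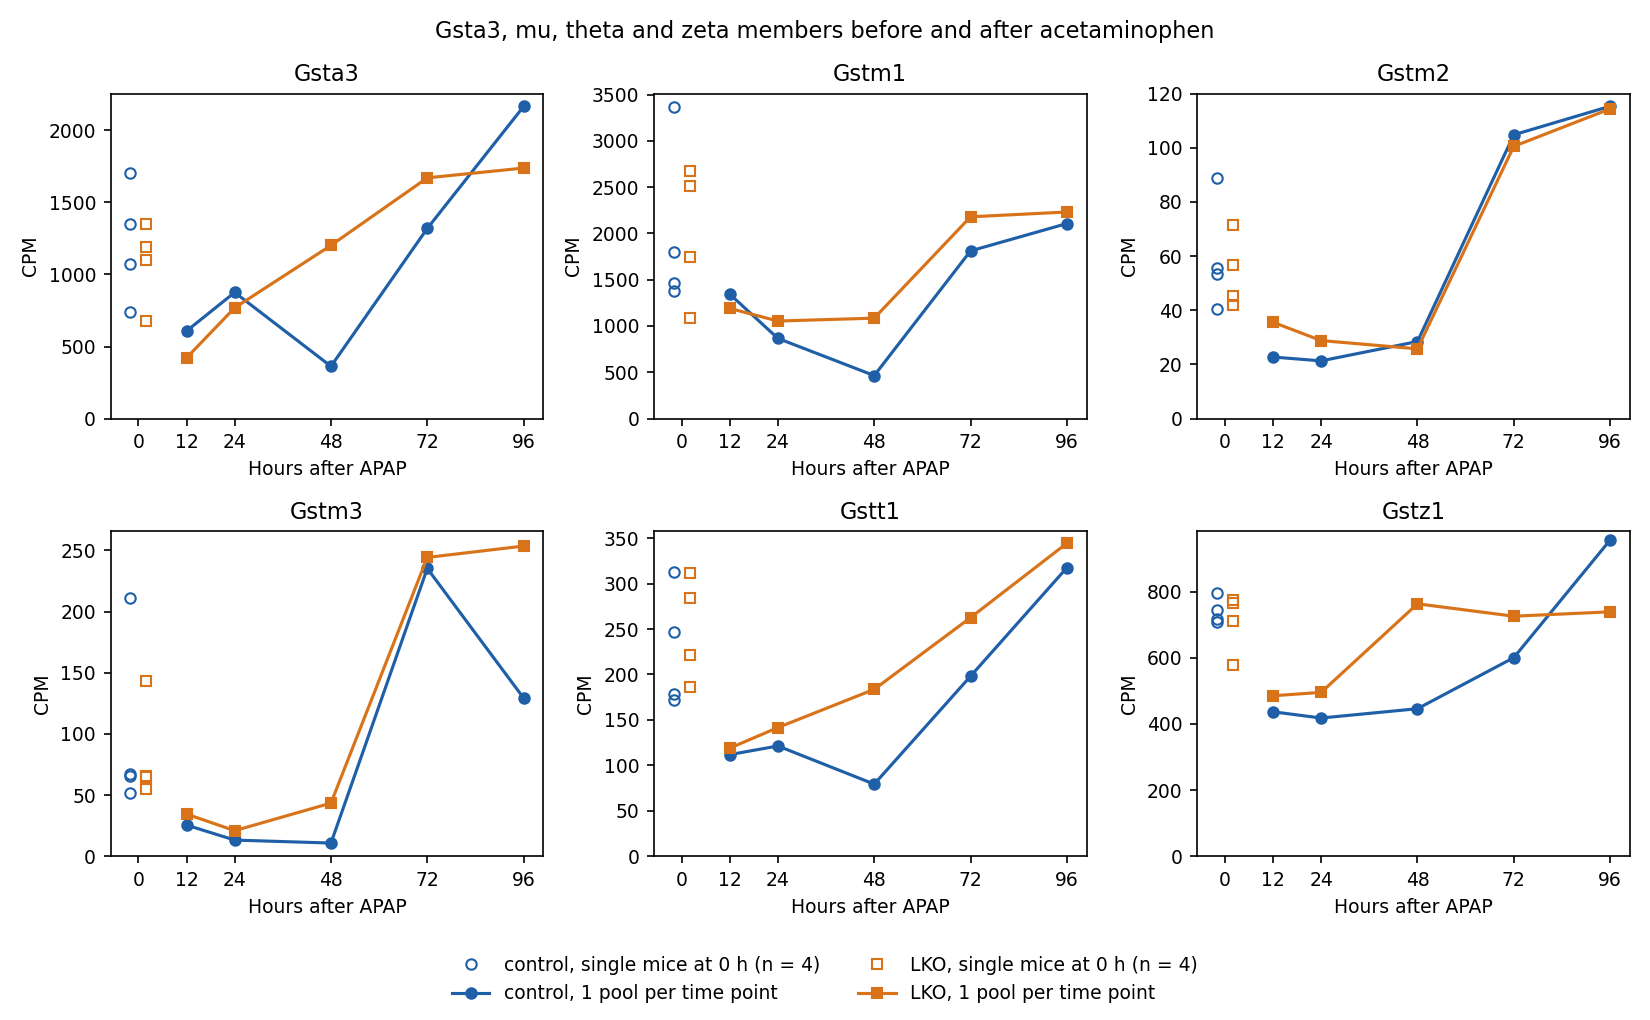
*Gsta3*, *Gstm1*, *Gstm2*, *Gstm3*, *Gstt1* and *Gstz1* in CPM against hours after APAP, each panel on its own axis from 0. Open symbols are single untreated mice (4 control, 4 LKO) and filled symbols joined by lines are single pools of 3 mice. *Gstm2* and *Gstm3* lie below all untreated mice from 12 to 48 h and above them at 72 h, and at 48 h the control pool is the lower of the 2 for *Gsta3*, *Gstm1*, *Gstm3*, *Gstt1* and *Gstz1*.

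Markers of pericentral and periportal hepatocytes are set beside these low levels. The summed level of 10 pericentral markers (*Glul*, *Cyp2e1* and others, with *Slc1a2* at 0 in the control pool at 24 h) was 7189 to 12710 CPM in the 8 untreated mice. It was 5075, 1674, 848, 3410 and 9323 CPM in the control pools and 4484, 3307, 3056, 6258 and 6164 CPM in the LKO pools from 12 to 96 h. Of the 10 markers, 6, 8 and 9 were called lower at 12, 24 and 48 h, and 2 were called higher at 12 h. Their median log2 fold change was -1.215, -1.943 and -2.139 at these times, and -0.856 and 0.001 at 72 and 96 h. The summed level of 9 periportal markers (*Cyp2f2*, *Hal* and others, with *Ass1* listed at 0 in all 4 untreated control mice) was 7927 to 13050 CPM in the untreated mice, 5771, 4070, 5414, 5118 and 6686 CPM in the control pools and 8917, 4614, 6762, 6632 and 6053 CPM in the LKO pools, so that only the LKO pool at 12 h lay within the untreated range. Of the 8 periportal markers tested, 2, 4 and 2 were called lower and 2, 1 and 1 higher at 12, 24 and 48 h. The median log2 fold change of these 8 was -0.145, -0.92 and 0.06 at these times, and -0.303 and -0.248 at 72 and 96 h. The part of both lists in the changes of the GST genes was not tested.

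Markers of some other cell types were high at 72 h, when *Gstm2* and *Gstm3* were higher. Of 8 stellate cell and fibroblast markers 7 were called higher (summed level 1186 and 838 CPM in the control and LKO pools against 138 to 255 CPM before APAP), of 7 monocyte markers 7, and of 10 Kupffer cell and macrophage markers 4 (589 and 727 CPM against 241 to 585 CPM). Of 7 endothelial markers 0 were called higher and 2 lower, of 5 cholangiocyte markers 0 and 1, and of 2 neutrophil markers 0 and 0. Over all genes 10.3% were called higher and 5.72% lower at 72 h. The part of these cell types in the levels of *Gstm2* and *Gstm3* was not tested.

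*Gstp1*, the pi-class enzyme, was not called at any time, with its lowest values in the late LKO pools. It had 2159, 3298, 3214 and 1966 CPM in the untreated control mice and 2486, 1217, 2331 and 2500 CPM in the untreated LKO mice, with LKO replicate 2 far below the others. The control pools had 2364, 1716, 1443, 1806 and 1805 CPM from 12 to 96 h and the LKO pools 1611, 1114, 1023, 779 and 599 CPM. From 24 to 96 h every pool lay below all untreated mice of its own genotype. The log2 fold change was -0.25, -0.80, -0.96, -0.98 and -1.12 from 12 to 96 h (SE 0.31 to 0.34), with adjusted p = 0.55, 0.0754, 0.0548, 0.0501 and 0.127, so none was called. Without LKO replicate 2 it was called lower at 24, 48 and 72 h (adjusted p = 0.0466, 0.0346 and 0.034), as it was without control replicate 4 (0.0477, 0.0375 and 0.0318), and without control replicate 1 at 48 and 72 h (0.0497 and 0.0429). DESeq2 called it lower at 24, 48, 72 and 96 h (adjusted p = 0.0312, 0.0122, 0.0114 and 0.018), and edgeR with genes of at least 1 count kept at 48 and 72 h (0.05 after rounding, and 0.048).

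Values of male-biased liver genes are set beside those of *Gstp1*. The summed level of 9 such genes was 4789 to 31790 CPM in the 8 untreated mice and 3486 to 7151 CPM in the 10 pools, which overlap, and 4, 8, 7, 3 and 0 of the 9 were called lower from 12 to 96 h, with median log2 fold changes of -1.81, -2.54, -1.87, -1.34 and -0.75. These medians were lowest at 24 h, whereas the fitted *Gstp1* values were lowest at 96 h. Their part in the *Gstp1* levels was not tested.

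Per length, the share of *Gstp1* in the summed TPM of the 10 genes was 22.4% to 57.9% in the 8 untreated mice of the LKO cohort. In the control pools it was 51.3%, 47.2%, 58.4%, 35.5% and 30.6% from 12 to 96 h, and in the LKO pools 45.9%, 35.3%, 31.6%, 16.5% and 12.6%. At 96 h *Gstm1* led in both pools, and in the LKO pool *Gstp1* also came after *Gsta3*.

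**Figure D3:**
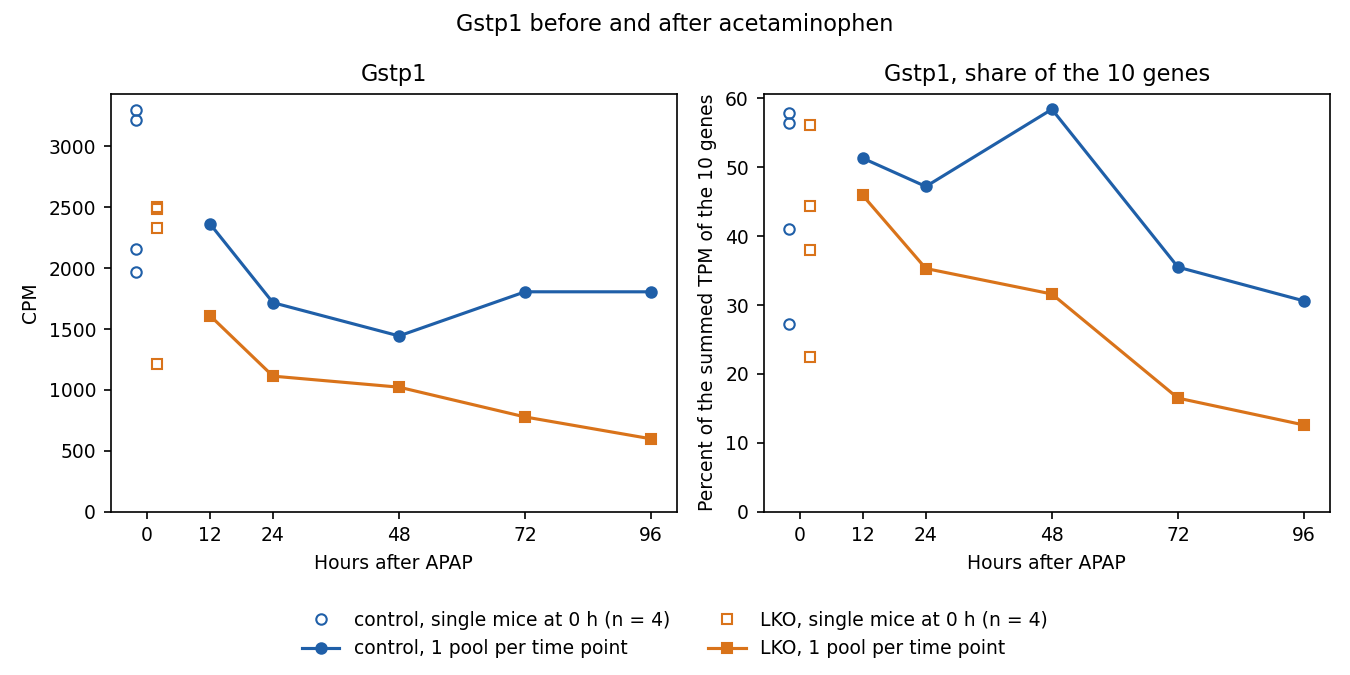
*Gstp1* in CPM (left) and as a percent of the summed TPM of the 10 genes (right) against hours after APAP, both axes from 0. Open symbols are single untreated mice (4 control, 4 LKO) and filled symbols joined by lines are single pools of 3 mice. The LKO pools lie below the control pools at all 5 times on the left, at 779 against 1806 CPM at 72 h and 599 against 1805 CPM at 96 h.

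The genotypes were first compared in the untreated mice. LKO livers are known to be enriched in diploid hepatocytes, so that deletion from early life and ploidy cannot be told apart in them. In the LKO cohort the 4 control and 4 LKO mice overlapped for every one of the 10 genes, while 1.18% of all genes were higher and 0.612% lower in LKO without overlap. Of the 10, 0 were called and 0 had an unadjusted p under 0.05, and 0% was called of the 12426 genes tested, of which 352 had an unadjusted p under 0.05 in edgeR's quasi-likelihood test. DESeq2 called 3 genes, none of them among the 10. The fitted log2 differences (LKO minus control) ran from -0.32 for *Gstp1* (SE 0.26) to 0.72 for *Gsta1* (SE 0.71), all with an adjusted p of 0.999. Control replicate 4 and LKO replicates 2 and 4 had the highest *Gsta2* and *Gstm1* levels in both groups, and control replicate 4 and LKO replicate 2 the lowest *Gstp1* levels. A p that misses the threshold does not show equal levels.

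In the HKO cohort, *Gsta3* was lower in the libraries labelled HKO. It had 747, 712 and 813 CPM in the 3 control mice and 389, 492 and 410 CPM in the 3 HKO mice, without overlap (log2 fold change -0.81, SE 0.12, adjusted p = 0.0151). It was the only called gene of the 9 tested, while 0.96% of the 12397 genes tested were called (0.419% higher, 0.54% lower), and *Gsta1*, at 0 to 5 reads in every mouse, fell below the filter. The call was lost without control replicate 1, 2 or 3 (adjusted p = 0.0682, 0.0507 and 0.0505) and when all 14 untreated mice shared the estimate of spread (0.332). It was kept under 11 of 15 other settings, and the log2 fold change lay between -0.92 and -0.74 in all 15.

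*Gstp1* had 1896, 1680 and 2396 CPM in control mice and 1493, 1233 and 1047 CPM in HKO mice. The groups did not overlap, which held for 9.32% of all genes in this direction and 8.67% in the other, and the log2 fold change was -0.66 (SE 0.17, adjusted p = 0.122). DESeq2 called it (adjusted p = 0.00495), as did edgeR without HKO replicate 1 (adjusted p = 0.0357) and with genes of at least 1 count kept (0.0453). *Gsta2* had 21.1, 19.3 and 35.2 CPM against 12.8, 18.2 and 14.8 CPM (-0.72, adjusted p = 0.227), and *Gstz1* 743, 682 and 673 CPM against 583, 545 and 557 CPM (-0.31, adjusted p = 0.185), both without overlap. *Gstm1* had 742, 671 and 1027 CPM in control and 779, 960 and 709 CPM in HKO mice, with a log2 difference of 0.01 (SE 0.17). *Gsta4*, *Gstm2*, *Gstm3* and *Gstt1* were at -0.45, 0.09, 0.55 and -0.13 on the log2 scale and were not called.

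**Figure D4:**
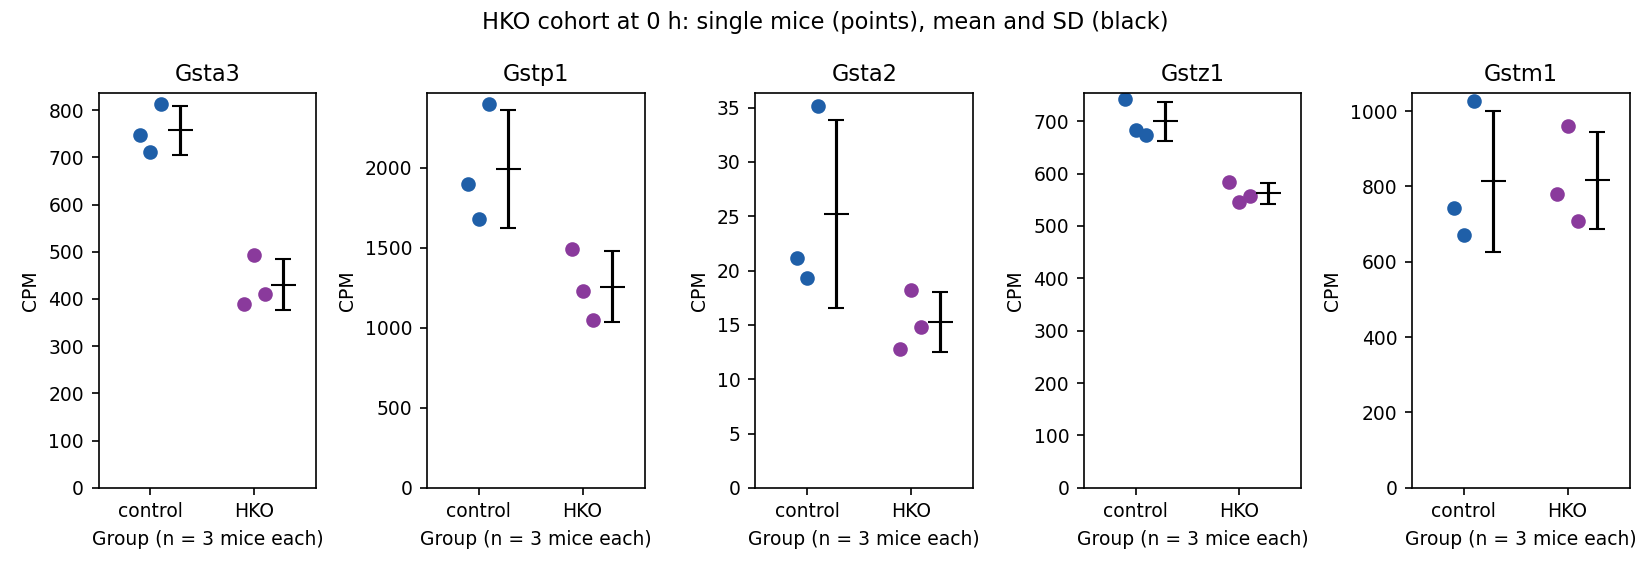
CPM of *Gsta3*, *Gstp1*, *Gsta2*, *Gstz1* and *Gstm1* in the HKO cohort at 0 h, each panel on its own axis from 0. Points are single mice (3 control, 3 HKO) and the black marks are the mean and SD. *Gsta3* separates at 757 ± 51.4 against 431 ± 54.5 CPM, and *Gstm1* overlaps.

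Values of other lists are set beside the lower *Gsta3*. The summed level of 9 male-biased liver genes, all present in both groups, was made up mostly of *Mup20* in the control mice, with *Mup20* at 8173 to 9590 CPM in the control mice and 2691 to 4323 CPM in the HKO mice. That sum was 14050 to 15540 CPM in the control mice and 7352 to 9369 CPM in the HKO mice. Of the 9 genes, *Mup20*, which encodes a major urinary protein, was called lower (log2 fold change -1.33, adjusted p = 0.00927) and *Elovl3* higher (1.09, adjusted p = 0.0238), and the median log2 fold change of the 9 was -0.06. The summed level of the 9 periportal markers was 12000 to 12690 CPM in the control mice and 7703 to 9302 CPM in the HKO mice, also without overlap, with 0 of the 8 tested called and a median of -0.46 (0.01 over all genes). Of 6 female-biased genes tested, 2 were called lower. The part of these lists in the GST differences was not tested. The difference between the LKO effect and the HKO effect was 0.64 for *Gsta3* (SE 0.35) and 0.35 for *Gstp1* (SE 0.36), and 0 of the 10 genes and 0% of the 12945 genes tested were called for it (579 had an unadjusted p under 0.05). The effects of both deletions are thus not shown to differ.

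After APAP, the LKO and control pools were compared across the 5 time points with time as a block. Time points took the place of replicates, so the p-values do not measure the spread between mice or between pools of 1 time. At each time *Gstp1* was the lower in LKO, by 0.55, 0.62, 0.50, 1.21 and 1.59 on the log2 scale from 12 to 96 h. Such a pattern held for 8.13% of the 12782 genes tested, and the fitted difference was -0.91 (SE 0.20, adjusted p = 0.0743). At each of the 5 times *Gstm3* was the higher in LKO (0.79, SE 0.24, adjusted p = 0.146), and so was *Gstt1* (0.39, SE 0.19, adjusted p = 0.311), a pattern that held for 9.05% of genes. None of the 10 was called by edgeR, against 0.579% of all genes (0.25% higher, 0.329% lower). *Gstp1* and *Gstm3* had an unadjusted p under 0.05, as did 2284 of the 12782 genes tested.

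The tool changed these calls. DESeq2 called *Gstp1* (adjusted p = 0.00054) and *Gstm3* (adjusted p = 0.0278), and edgeR with genes of at least 1 count kept called *Gstp1* (adjusted p = 0.0181). With only 72 and 96 h compared, *Gstp1* was at -1.41 (adjusted p = 0.00771) and *Gsta2* at 0.65 (adjusted p = 0.0459). *Gsta1* was lower in the LKO pool at 4 of 5 times, by 1.79 at 12 h and 1.65 at 48 h on the log2 scale, and higher by 1.35 at 96 h (fitted difference -0.71, SE 0.37, adjusted p = 0.335). On the log2 scale the widest gaps between the 2 pools at 48 h were those of *Gstm3* (10.8 CPM in control against 43.5 CPM in LKO), *Gsta3* (363 against 1202 CPM) and *Gsta1* (53.0 against 16.9 CPM), each from 1 pool a genotype and so without a replicate check.

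Values of the same lists in these pools were as follows. Of 9 male-biased genes tested, *Mup20* was called lower in LKO (-1.13, adjusted p = 0.0417) and the median was 0.09, while 6 of 9 female-biased genes tested were called higher (median 2.75). The summed level of the male-biased genes was 4676 to 7151 CPM in control and 3486 to 5116 CPM in LKO pools, of which *Mup20* made up 2553 to 5431 and 1042 to 3301 CPM, and that of the 10 female-biased genes 112 to 788 and 225 to 914 CPM. Their part in the *Gstp1* difference was not tested. The difference between the LKO effect after APAP and at 0 h was -0.59 for *Gstp1* (SE 0.35), 1.05 for *Gstm3* (SE 0.56) and -1.41 for *Gsta1* (SE 0.83), and 0 of the 10 genes and 0% of 13328 genes were called for it (1285 had an unadjusted p under 0.05).

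**Figure D5:**
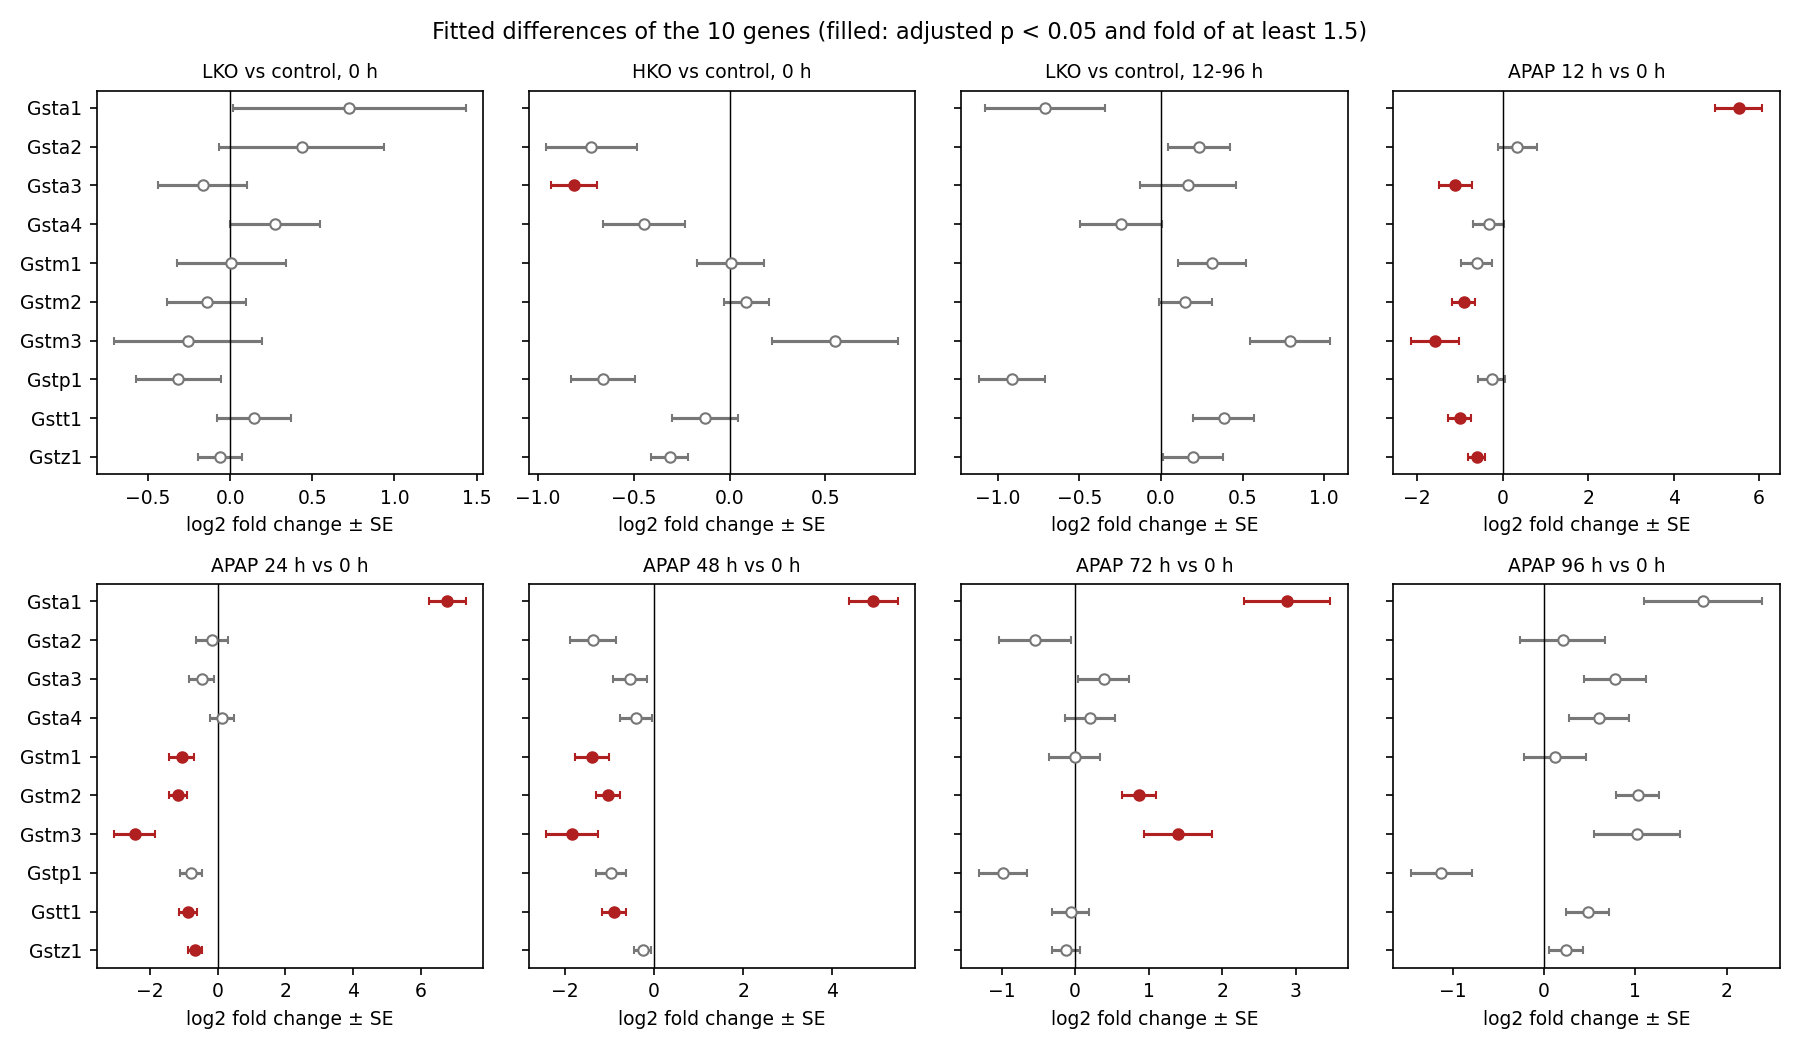
Fitted log2 fold change ± SE of the 10 genes in 8 comparisons, each panel with its own horizontal axis, with 0 as no difference. Filled red points passed an adjusted p of 0.05 and a fold of 1.5, and *Gsta1* is absent from the HKO panel because it was not tested there. Only *Gsta3* is filled among the 3 genotype panels, at -0.81, and *Gsta1* has the largest value in every APAP panel, up to 6.78.

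Of the 17 other GST genes listed, 13 were tested after APAP, and their counts were mixed. At 12 h 5 were called, all lower, among them *Gstm6* (-1.68, adjusted p = 0.0023), *Gstm7* (-1.33), *Gstm4* (-1.15) and the kappa-class *Gstk1* (-0.96). The counts were 3 lower and 1 higher at 24 h, 2 and 2 at 48 h, and 1 and 3 at 72 h. *Hpgds*, the hematopoietic prostaglandin D synthase, was the largest of the later rises, from 0.116 to 0.773 CPM in the untreated mice to 4.40 and 4.49 CPM at 72 h (3.41, adjusted p = 1.88e-05). At 72 h the summed level of 7 monocyte markers, none of them at 0 in a whole group, was 574 CPM in the control and 520 CPM in the LKO pool against 26.2 to 59.4 CPM before APAP, and its part in the rise of *Hpgds* was not tested. *Gstt3* was the member of this list called between genotypes after APAP, higher in LKO (1.09, SE 0.17, adjusted p = 0.0299), and *Gstt2* the one called in HKO mice, lower (-0.59, SE 0.10, adjusted p = 0.0318).

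A list of genes that make, recycle, use or break down glutathione, or act beside it, had 14 genes tested. Of these, 7 were called higher and 1 lower at 12 h, and 9 and 2 at 24 h. The counts were 5 and 1 at 48 h, 4 and 2 at 72 h and 0 at 96 h. Over all genes 17.3%, 13.9%, 9.15% and 10.3% were called higher from 12 to 72 h. *Gclc*, the catalytic subunit of glutamate-cysteine ligase, went from 217 to 411 CPM in the untreated mice to 2369 CPM in the control and 814 CPM in the LKO pool at 12 h (2.39, SE 0.29, adjusted p = 2.36e-05). *Slc7a11*, the cystine transporter, had at most 1 read in any untreated mouse of the LKO cohort and 3.17 and 7.96 CPM at 12 h, 6.21 and 15.4 CPM at 24 h in the control and LKO pools. *Gpx1*, a glutathione peroxidase, was called lower at 12 h (-0.88) and 24 h (-1.54).

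Of 6 NRF2 reference targets listed, 5 rose at 12 h (all but *Gclm*), and of 4 regulators listed beside them *Mafk*, a small MAF partner of NRF2, rose (2.17, adjusted p = 1.7e-05). *Gclc*, *Gclm* and *Txnrd1* are counted in the glutathione list too. The targets included *Srxn1*, sulfiredoxin (4.69, adjusted p = 3.16e-10), and *Hmox1*, heme oxygenase 1 (4.40, adjusted p = 4.14e-08), and 4, 2 and 3 of the targets were called higher at 24, 48 and 72 h. The regulator *Mafg* was called lower at 24 h (-0.79, adjusted p = 0.0335). *Hmox1* was also called lower in LKO than in control pools across 12 to 96 h (-1.21, SE 0.22, adjusted p = 0.0484). Of the 14 mercapturate pathway and export genes tested, 2 were higher and 3 lower at 12 h and 4 higher and 4 lower at 24 h, against 17.3% and 14.7% of all genes at 12 h and 13.9% and 12.5% at 24 h, with the exporter *Abcc4* at 1.47 and 1.31 and the aminoacylase *Acy3* at -1.63 and -0.85. In HKO mice 2 of 14 were called, *Nat8* (-0.89, adjusted p = 0.0423) and *Acy1* (-0.71, adjusted p = 0.0289), both lower. The 3 P450 genes that form NAPQI fell, *Cyp1a2* at 12 h (-2.39) and all 3 at 24 h, with *Cyp1a2* at -2.96, *Cyp3a11* at -2.25 and *Cyp2e1* at -2.10, and at 48 h.

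The genes most like each of the 10 were taken as those with the highest Pearson r of log2 CPM over the 18 libraries of the LKO cohort, among 13327 genes. These r describe libraries that share time points and depth. *Gsta1* was most like *Gm3776* (0.983), *Fam84a* (0.943) and *Pgd* (0.935). *Gstm2* and *Gstm3* were each among the genes most like the other (0.924), with *Bcam* (0.891) and *Cyp2c55* (0.885) for *Gstm2* and *Cyp2c55* (0.929) and *Aldh1b1* (0.848) for *Gstm3*. *Gstm1* was most like *9130409I23Rik* (0.916), *Cyp3a11* (0.902) and *Gstt1* (0.898), and *Gstt1* like *Nipsnap1* (0.957), *Gstm6* (0.957) and *Cmtm8* (0.95).

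*Gsta3* was most like *Vdac1* (0.958), *Akr1c12* (0.943) and *Pemt* (0.94), *Gstz1* like *Fah* (0.956), *Pxmp2* (0.953) and *Pecr* (0.949), and *Gsta4* like *S100a1* (0.886), *Il11ra1* (0.885) and *Apoh* (0.835). *Gsta2* was most like *Rdh16* (0.865), *Aptx* (0.846) and *Gstt2* (0.804). *Gstp1* was most like *Cyp4a12b* (0.876), *Mup14* (0.855) and *Mup7* (0.83), and its r with the other 9 genes ran from -0.457 with *Gsta1* to 0.004 with *Gstz1*. *Gsta1* and *Gsta2* had an r of 0.076, against 0.924 for *Gstm2* with *Gstm3* and 0.898 for *Gstt1* with both *Gsta3* and *Gstm1*.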

How the data were processed

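The authors deposited raw read counts per gene for each library, made per the paper's methods by trimming with Trimmomatic, alignment to mm10 with STAR and counting with its GeneCounts option; the annotation version is not given in the sources used here. The column that disregards strand was used, since the 2 stranded columns had near-equal totals, and rows that name no gene (unmapped 2.63% to 20.6%, no feature 7.29% to 14.7%, multimapping 4.69% to 8.06%) were left out. Depth of 12665686 to 19499897 reads on genes makes 3 counts equal to 0.154 to 0.237 CPM. edgeR 4.0.16 (R 4.3.3) fitted each comparison on all genes kept by filterByExpr, with TMM scaling, a quasi-likelihood F-test and Benjamini-Hochberg adjustment, and DESeq2 1.42.0 was an alternative to it. The fits were tested on simulated data. Log2 CPM used a prior count of 2. TPM used exon lengths from GENCODE vM21, which matched 98.4% of symbols, and promoters came from RefSeq (no entry for *Gsta4*). Named genes were the 10 members, the called genes of 5 related lists (at most 5 per list and comparison by fold), the 3 genes most like each member, and *E2f7* and *E2f8*. Apart from these, *Gm3776*, *Gclm*, *Mup20*, *Elovl3* and the markers were named after their values were seen. The members and lists were chosen with earlier results of these data known. Nothing in the sources pairs control and knockout mice by number. The p-values measure the spread between mice at 0 h and, after APAP, between pools and single mice. The sources differ on how the virus was given and list 4 mice per genotype at 0 h, where 3 libraries per HKO-cohort group were used here.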

Additional observations from a re-analysis of the deposited data

Results flagged for a closer look

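*Gstp1* in the untreated LKO mice was flagged because 1 mouse stood apart from the rest. LKO replicate 2 had 1217 CPM against 2331 to 2500 CPM in the other 3, and its gap to the nearest mouse was 0.903 of the whole range on the log2 scale, above Dixon's 95% critical value for 4 samples. Of 20 groups tested, chance flags about 1 in 20. The same mouse had the lowest summed level of the 9 male-biased genes among the untreated mice, 4789 CPM, and the highest *Gstm1* of the LKO mice, 2677 CPM. Whether these move together for a shared reason was not tested.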

How the results depend on the processing

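In each of 1756 fits of a member under another setting, the direction and call were kept in 1623, a call was lost in 52 and gained in 25, and the sign turned in 56. Counts of genes called that moved by over 1.5 times were, for the LKO cohort at 0 h, 3 with DESeq2, and for HKO 331 with DESeq2, 255 with at least 1 count and 31 with all 14 mice in 1 fit, with 2, 2 and 0 members called. For LKO against control over 12 to 96 h, DESeq2 called 606 genes, library size alone 42, at least 1 count 337, at least 10 counts 34, no time block 0, 12 to 48 h 192 and 72 to 96 h 999, with 2 members called by DESeq2, 1 with at least 1 count and 2 at 72 to 96 h. At 96 h after APAP DESeq2 called 334 genes and 2 members, library size alone 40 genes and the stranded column 24. For the difference of the LKO effects DESeq2 called 39 genes and for LKO minus HKO 21, against 2 each with at least 1 count. With control libraries only, 1, 1, 2 and 1 members were called from 12 to 72 h (1670 genes at 24 h, 9 at 96 h), and with LKO libraries only 1, 1, 1 and 0 (1281, 1023, 172 and 296 genes, and 10 at 96 h). The causes were not tested.

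Numbers shared by control and knockout mice did not pair them, since deviations of same-numbered mice correlated at -0.379 to 0.222 in the LKO cohort and -0.031 to 0.198 in the HKO cohort. A replicate block gave 263 called genes in the HKO cohort and 1 member, and 0 in the LKO cohort. Leaving out 1 library at a time gave 0 to 1 called genes for LKO at 0 h, 54 to 297 for HKO (0 to 2 members), 18 to 84 at 96 h after APAP (0 to 1 members), 2 to 4 members at 72 h, and 0 to 2 and 0 to 3 genes for the difference of LKO effects and for LKO minus HKO. For LKO over 12 to 96 h, leaving out both pools of 1 time point gave 9 to 177 genes, the highest without 96 h. Library size alone put the median log2 change over all genes at 0.15 at 24 h and 0.18 at 48 h.

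None of the log2 values that turned sign was called. For *Gstm1* at 72 h they were 0.003 with DESeq2 and with RLE scaling, 0.089 with library size alone, 0.035 with at least 10 counts, 0.006 with the stranded column and 0.126 with LKO libraries only, and for *Gstm1* in LKO minus HKO 0.004, 0.004, 0.047 and 0 under the first 4 of these. Library size alone gave 0.064 for *Gstz1* in LKO at 0 h and 0.032 for *Gstt1* at 72 h. For LKO against control, *Gsta2* was -0.015 over 12 to 48 h, and over 72 to 96 h *Gsta1* was 0.333, *Gstm2* -0.039 and *Gstz1* -0.051. With control libraries only, *Gsta4* was 0.158 at 12 h. With LKO libraries only, *Gsta2* was -0.132 at 12 h, *Gsta4* -0.557 at 24 h, *Gsta3* 0.168 and *Gstz1* 0.12 at 48 h, and *Gstt1* 0.07 and *Gstz1* 0.042 at 72 h. Leaving out 1 library moved LKO at 0 h from -0.341 to 0.03 for *Gsta3*, -0.163 to 0.368 for *Gstm1*, -0.31 to 0.104 for *Gstm2*, -0.667 to 0.416 for *Gstm3* and -0.107 to 0.021 for *Gstz1*. It moved HKO from -0.127 to 0.209 for *Gstm1* and -0.267 to 0.062 for *Gstt1*. Leaving out both pools of 1 time point moved LKO over 12 to 96 h from -0.183 (without 48 h) to 0.361 for *Gsta3*. Leaving out 1 library moved *Gsta2* at 24 h from -0.279 to 0.087, and at 72 h *Gstm1* from -0.102 to 0.174 and *Gstt1* from -0.115 to 0.033. For the difference of LKO effects the ranges were -0.778 to 0.115 (*Gsta2*), -0.019 to 0.532 (*Gsta3*) and -0.048 to 0.492 (*Gstm1*), and for LKO minus HKO -0.205 to 0.365 (*Gstm1*) and -0.395 to 0.019 (*Gstm2*).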
